A study of Mus musculus with 7 samples.

Results

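The RANKL system and the transcription, co-stimulation and fusion genes of osteoclast formation were followed as 10 genes, chosen by symbol: Tnfsf11, Tnfrsf11a, Tnfrsf11b, Traf6, Nfatc1, Prdm1, Mitf, Dcstamp, Ocstamp and Oscar. All 10 were found by Entrez number among the 27179 genes of the expression table. RNA had been sequenced from whole ankles, dissected without skin, of DBA1 mice with collagen-induced arthritis, an immune model in which joints become inflamed and bone is eroded. Each joint had received a lipoplex, which is a lipid carrier of nucleic acid, loaded with miR-17-5p mimic (4 libraries, numbered 1, 2, 4 and 5) or an irrelevant microRNA (3 control libraries, numbered 2, 3 and 5). Both groups thus shared strain, arthritis, injection and carrier, and no untreated or non-arthritic ankle was compared. The sources used here do not give age, sex or the interval between injection and dissection. Whether each ankle is from an animal of its own is not stated, so p-values reflect only how these libraries vary, which may be technical.

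Osteoclasts, the cells that resorb bone, form when precursors of the monocyte lineage fuse. RANKL, made by bone-lineage cells, synovial fibroblasts and T cells, binds its receptor RANK on the precursor, whereas OPG, a secreted decoy receptor, captures RANKL before it can bind. RANK recruits the adaptor TRAF6, which activates NF-kB and AP-1 factors and then NFATc1, the master transcription factor of the lineage. NFATc1 acts with MITF and with co-stimulation through receptors such as OSCAR, Blimp-1 silences repressors of the programme, and the membrane proteins DC-STAMP and OC-STAMP are needed for fusion. In inflamed joints RANKL drives the erosion of bone.

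The seed of a microRNA, bases 2 to 8, is the main but not the only part that pairs with messenger RNAs. The microRNA delivered by the mimic is shown with its seed in capitals (RefSeq, GRCm38.p6, chr14:115043684-115043706, plus strand). The line after it gives a stretch of the 3 prime UTR of Tnfsf11, with the bases that pair with the seed in capitals.
miR-17-5p: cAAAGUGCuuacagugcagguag
Tnfsf11 site: atttaactggtGCACTTTgtaattcccct
The longest annotated 3 prime UTR of each of the 10 genes (GENCODE M21) was searched on the transcript strand for GCACTTTA, GCACTTT and CACTTTA. Tnfsf11 held 1 match, the heptamer GCACTTT at GRCm38 chr14:78277936-78277942 on the minus strand, which begins at base 634 of a 3 prime UTR of 1131 bases. The other 9 genes held 0 matches, although the UTRs of Traf6 and Mitf, at 4170 and 3174 bases, were longer than that of Tnfsf11. Among 12495 genes tested for expression that had an annotated 3 prime UTR, 21.4% held a match. A match is a run of letters and does not show that the microRNA acts there.

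Levels are given in FPKM, in which the authors scaled reads by exon length and by the assigned reads of the library, so they can be compared between genes. Libraries held between 27465276 and 31118975 assigned reads, and each of the 10 genes had between 300 and 5457 reads in every library. The groups were compared with limma on log2(FPKM + 0.5) over the 13418 genes averaging 1 FPKM or more, and log2 fold changes are the mimic over the control group. The added 0.5 FPKM makes the fold changes of low genes smaller. All 10 genes passed that filter. No gene of the 13418 passed at a Benjamini-Hochberg adjusted p under 0.05 (0.0% called), and the lowest adjusted p was 0.148, while 2356 genes had an unadjusted p under 0.05, of which 1353 (10.1%) were lower in the mimic ankles. limma-voom on the recovered reads called 0 genes and put 2365 under 0.05 unadjusted. No other gene of the table shares exon bases with any of the 10. The nearest library, by the chi-square of their reads per gene, was not always of the same group. Control library 2 was nearer to mimic library 2 (22.6) than to control libraries 3 (50.8) and 5 (82.1). Control library 3 was nearer to mimic library 4 (32.3) than to control library 5 (34.6). Mimic library 1 was nearest to mimic library 4 (16.7). It was nearer to control library 3 (41.0) than to mimic libraries 2 (61.7) and 5 (68.3). Control library 2 had the lowest control value in 8 of the 10 genes.

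Of the 10 genes, 9 had a negative log2 fold change and 0 passed the test over all genes, against 51.7% of all genes tested with a negative one. Of the 10, 6 had an unadjusted p under 0.05, all of them lower in the mimic ankles. The median log2 fold change was -0.25 over the 10 genes and -0.0063 over all genes tested. In 5 of the 10, Nfatc1, Prdm1, Dcstamp, Ocstamp and Oscar, every mimic library lay below every control library, as it did in 8.84% of all genes tested. RANKL had the lowest log2 fold change of the 10 and the widest spread between libraries, and OPG had nearly equal means. Of 14 mature osteoclast genes tested 0 passed and 12 had a negative log2 fold change. With Calcr, which was not tested, the 15 genes of that list summed to 3842 to 4184 FPKM in mimic and 4285 to 4377 FPKM in control libraries. That sum includes Cst3, described below, at 1206 to 1372 FPKM in mimic and 934 to 1128 FPKM in control libraries. The sum of 8 macrophage genes, whose cells share precursors with osteoclasts, was 895 to 1188 FPKM in mimic and 1029 to 1175 FPKM in control libraries, with overlap. Of these macrophage genes, 0 passed and 5 had a negative log2 fold change. Their median was -0.15, and that of the mature osteoclast genes was -0.18. In whole-ankle RNA, fewer cells of a type and less RNA per cell cannot be told apart.

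**Figure D1:**
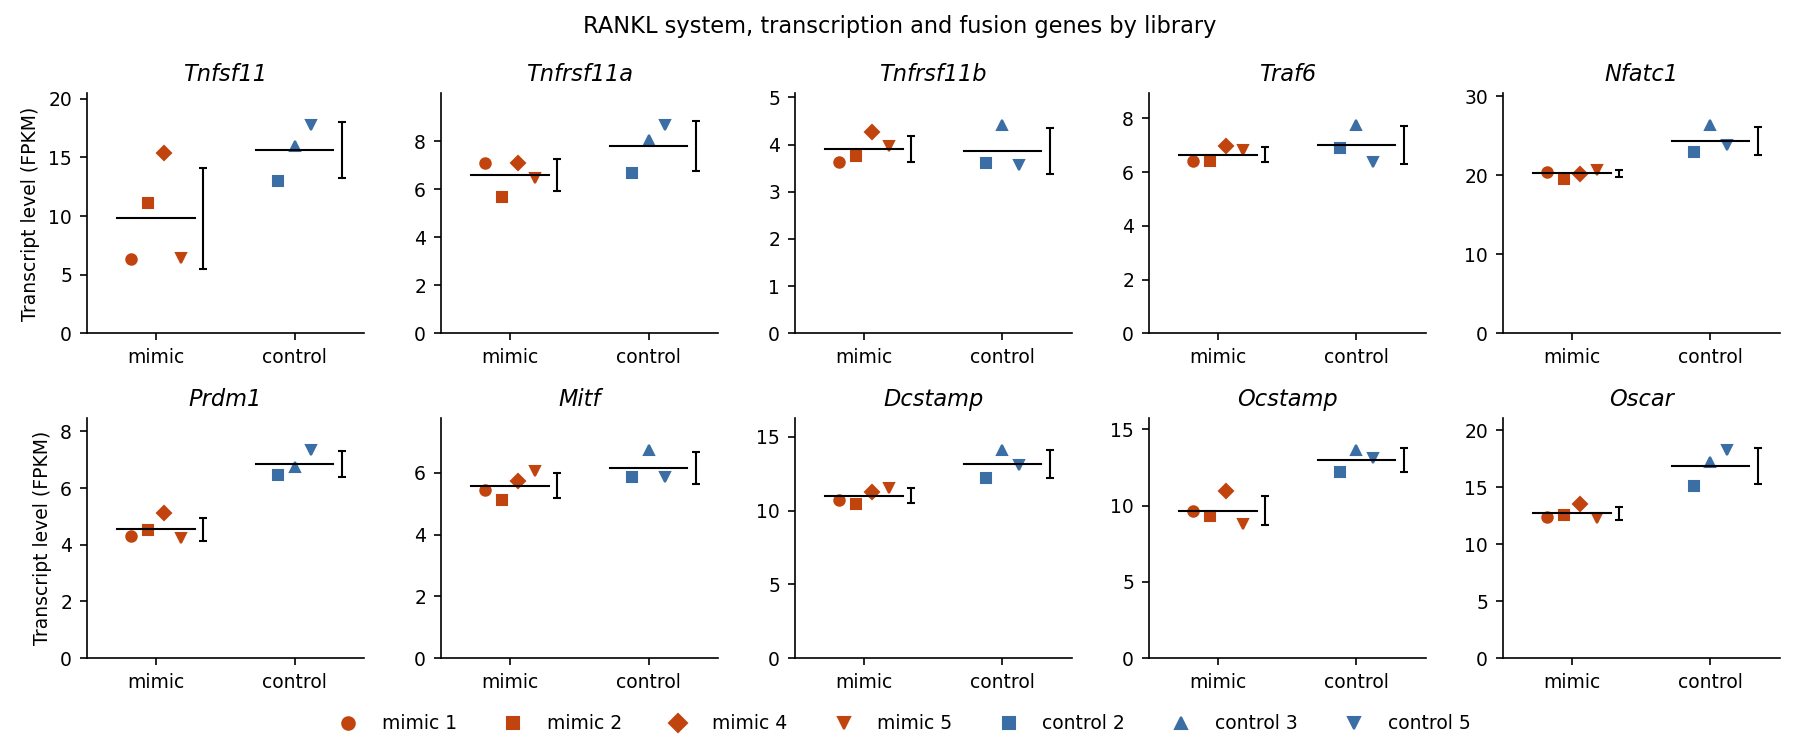
Transcript level in FPKM of each of the 10 genes, per library, in mimic (left, n = 4) and control ankles (right, n = 3). Symbols mark the replicate number, horizontal lines the group mean and error bars the SD; the mimic libraries lie below all controls for Nfatc1, Prdm1, Dcstamp, Ocstamp and Oscar, and spread widest for Tnfsf11.

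Tnfsf11 encodes RANKL (mm10 chromosome 14, 78277446 to 78308043). It stood at 6.35, 11.1, 15.4 and 6.41 FPKM in mimic libraries 1, 2, 4 and 5, against 13.0, 16.0 and 17.8 FPKM in control libraries 2, 3 and 5. Mimic libraries 1 and 5 were far below every control, mimic library 2 was below them too, and mimic library 4 lay within the control range, so the groups overlapped. The mean was 9.81 ± 4.32 FPKM (SD, n = 4) in mimic and 15.6 ± 2.40 FPKM (SD, n = 3) in control ankles. Its log2 fold change was -0.73 (SE 0.31, limma adjusted p = 0.278). The 2.42-fold range within the mimic group was wider than the 1.36-fold range within the controls. When single libraries were left out the log2 fold change ran from -0.56, without mimic replicate 1, to -0.96, without mimic replicate 4.

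Marker lists of the cells named above as makers of RANKL, bone-lineage cells, synovial fibroblasts and T cells, were read beside it. The summed level of 8 osteoblast genes was 8912 to 9556 FPKM in mimic and 7870 to 8491 FPKM in control libraries, without overlap. Most of that sum was Col1a1, the main bone collagen, at 7055 to 7535 FPKM in mimic and 6672 to 6846 FPKM in control libraries. All 8 osteoblast genes had a log2 fold change above 0 and 0 passed over all genes. The groups overlapped for Sp7, Runx2, Alpl, Ibsp and Spp1, and did not for Col1a1, Bglap and Bglap2. Over all genes tested they did not overlap in 15.3%, counting both directions. Bglap and Bglap2 ran alike, at 98.8 to 187.8 and 105.7 to 200.8 FPKM in mimic libraries. In control libraries they ran from 17.2 to 91.9 and from 23.2 to 94.9 FPKM. The summed levels of 6 osteocyte genes, 8 synovial fibroblast genes and 8 T cell genes overlapped between the groups. They ran from 38.8 to 73.8 FPKM in mimic and 17.7 to 70.4 FPKM in control libraries for osteocytes. For synovial fibroblasts they ran from 1132 to 1452 and from 1221 to 1917 FPKM, and for T cells from 16.8 to 30.0 and from 21.3 to 26.1 FPKM, in mimic and control libraries in that order. Most of the synovial fibroblast sum was Prg4, at 859 to 1156 FPKM in mimic and 929 to 1611 FPKM in control libraries, with overlap. In that list Pdpn and Has2 were lower and Fap higher in the mimic ankles without overlap. Cdh11, Thy1, Clic5 and Gdf5 overlapped. All 5 osteocyte genes tested had a log2 fold change above 0 (median 0.45), 5 of 8 synovial fibroblast genes one below 0 (median -0.11) and all 7 T cell genes tested one below 0 (median -0.19), with 0 passing in each list. None of these genes was at 0 in any library, and Fgf23 and Cd8a were under the filter of 1 FPKM. The part of these cells in the RANKL difference was not tested.

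Tnfrsf11b encodes the decoy receptor OPG (chromosome 15, 54250619 to 54278484). It stood at 3.64, 3.75, 4.26 and 3.97 FPKM in the mimic libraries and at 3.60, 4.42 and 3.57 FPKM in the controls. The controls held both the highest and the lowest value, and the mimic libraries lay between them. The log2 fold change was 0.017 (SE 0.095, limma adjusted p = 0.936), and it turned below 0 in 4 of the alternative settings, so no direction is given. OPG was the lowest of the 10 genes in both groups.

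The ratio of Tnfsf11 to Tnfrsf11b, a rough index of RANKL that is free of its decoy, was 1.75, 2.96, 3.60 and 1.61 in mimic libraries 1, 2, 4 and 5, against 3.61, 3.62 and 4.98 in control libraries 2, 3 and 5. All 4 mimic ratios were below all 3 control ratios, but the gap between mimic library 4 and control library 2 was smaller than their counting intervals, 3.19 to 4.07 and 3.17 to 4.12 (95%, from the reads of both genes, counting error only). The mean ratio was 2.48 ± 0.963 (SD, n = 4) in mimic and 4.07 ± 0.787 (SD, n = 3) in control ankles. On the log2 scale the difference was -0.78 (SE 0.32), and an exact 2-sided permutation test gave p = 0.0857, with 0.0286 the smallest p that 4 against 3 libraries allow. Of its parts, RANKL ranged 2.80-fold over the 7 libraries and OPG 1.24-fold.

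**Figure D2:**
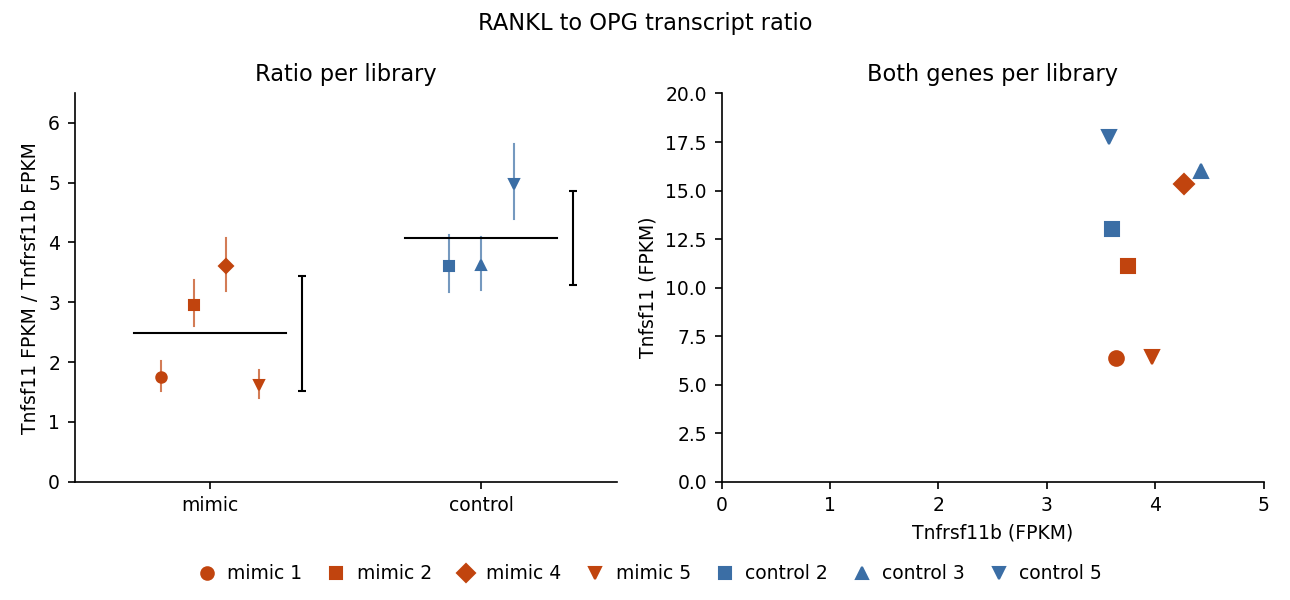
Left, FPKM of Tnfsf11 over FPKM of Tnfrsf11b per library in mimic (n = 4) and control ankles (n = 3), with 95% counting intervals as thin lines, group means as horizontal lines and SD as error bars. Right, Tnfsf11 against Tnfrsf11b in FPKM per library; the points spread along the Tnfsf11 axis and hardly along the Tnfrsf11b axis.

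Tnfrsf11a encodes RANK, the receptor on osteoclast precursors (chromosome 1, 105780723 to 105847981). It stood at 7.11, 5.68, 7.10 and 6.46 FPKM in the mimic libraries, against 6.66, 8.06 and 8.68 FPKM in the controls. Control library 2 lay within the mimic range, so the groups overlapped. The log2 fold change was -0.23 (SE 0.11, limma adjusted p = 0.339), or -0.093 with the mean of 12 skeletal muscle genes as a covariate and -0.15 without control replicate 5. The summed muscle level ran from 2695 to 10002 FPKM in mimic and from 1124 to 6790 FPKM in control libraries. All 12 muscle genes had a log2 fold change above 0 and none was at 0 in any library.

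Traf6 encodes the adaptor that couples RANK to its kinases (chromosome 2, 101678440 to 101700976). It stood at 6.41, 6.40, 6.96 and 6.83 FPKM in the mimic libraries, against 6.91, 7.76 and 6.37 FPKM in the controls, with log2 fold change -0.068 (SE 0.078, limma adjusted p = 0.651). The mimic values lay wholly within the control range, and the sign turned without control replicate 3, the library with the highest value.

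Nfatc1, the master transcription factor of osteoclasts (chromosome 18, 80606205 to 80713071), had the highest level of the 10 genes in both groups. It stood at 20.5, 19.6, 20.2 and 20.7 FPKM in the mimic libraries, against 23.0, 26.4 and 23.8 FPKM in the controls. The mimic values were tightly bunched and lay 2.25 FPKM below the lowest control. The log2 fold change was -0.26 (SE 0.062, limma adjusted p = 0.174).

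Prdm1 encodes Blimp-1, a repressor that in osteoclast precursors silences genes such as Irf8 and Bcl6 (chromosome 10, 44437175 to 44458687). It stood at 4.31, 4.52, 5.13 and 4.24 FPKM in the mimic libraries, against 6.45, 6.75 and 7.36 FPKM in the controls. The groups were 1.31 FPKM apart, wider than the range within either group. The log2 fold change was -0.54 (SE 0.084, limma adjusted p = 0.173). Sorted by limma's unadjusted p, Prdm1 was number 12 of 13418 genes and the first of the 10. Without control replicate 2, its lowest control, it passed over all genes at -0.58 (limma adjusted p = 0.0428).

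Blimp-1 is also the factor of plasma cells. The summed level of 7 plasma cell genes ran from 190.5 to 215.9 FPKM in mimic and from 199.7 to 232.8 FPKM in control libraries, with overlap, 4 of the 6 tested above 0 in log2 fold change and none at 0 in any library. Their part in the Prdm1 difference was not tested. Of genes that Blimp-1 silences, named here after their values were seen, Irf8 had log2 fold change -0.041 (SE 0.15, limma adjusted p = 0.901) and Bcl6 -0.19 (SE 0.19, limma adjusted p = 0.603). The groups overlapped for both.

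Mitf encodes a basic helix-loop-helix factor that acts with NFATc1 on osteoclast genes (chromosome 6, 97807058 to 98021358). It stood at 5.43, 5.13, 5.73 and 6.04 FPKM in the mimic libraries, against 5.86, 6.75 and 5.87 FPKM in the controls. Mimic library 5 was the one that reached into the control range. The log2 fold change was -0.13 (SE 0.081, limma adjusted p = 0.420), and it was -0.067 without control replicate 3. Melanocytes and mast cells also use MITF. Melanocyte genes summed to 3.41 to 5.09 FPKM in mimic and 2.44 to 3.58 FPKM in control libraries, with Tyr at 0 in some of them and 5 of 6 under the filter. Mast cell genes summed to 133.4 to 172.4 FPKM in mimic and 90.3 to 180.0 FPKM in control libraries. The part of both cell types was not tested.

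Dcstamp, which encodes the fusion protein DC-STAMP (chromosome 15, 39745932 to 39760934), stood at 10.7, 10.5, 11.3 and 11.6 FPKM in the mimic libraries, against 12.2, 14.1 and 13.1 FPKM in the controls. The groups did not overlap, with a gap of 0.658 FPKM and log2 fold change -0.25 (SE 0.068, limma adjusted p = 0.179). Ocstamp, which encodes its partner OC-STAMP (chromosome 2, 165395450 to 165400394), stood at 9.65, 9.32, 11.0 and 8.77 FPKM in the mimic libraries, against 12.2, 13.7 and 13.1 FPKM in the controls. Its groups did not overlap either, with a gap of 1.20 FPKM and log2 fold change -0.41 (SE 0.085, limma adjusted p = 0.174). The ranges of both genes overlapped each other within each group. Within each library Dcstamp was the higher, but hardly so in control libraries 2 (12.22 and 12.19 FPKM) and 5 (13.119 and 13.118 FPKM).

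Oscar encodes a receptor that pairs with the ITAM adaptor Fcer1g (chromosome 7, 3609813 to 3616133). It stood at 12.4, 12.6, 13.5 and 12.3 FPKM in the mimic libraries, against 15.1, 17.2 and 18.3 FPKM in the controls. The highest mimic library lay 1.59 FPKM below the lowest control. The log2 fold change was -0.39 (SE 0.076, limma adjusted p = 0.173). Without control replicate 2 it passed over all genes at -0.47 (limma adjusted p = 0.0367). In that fit Prdm1 and Oscar were the 2 of the 10 genes that passed, where 1.5% of 13422 genes passed with a lower level in the mimic ankles. Leaving out any other library gave 0 of the 10.

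As background, Oscar is a target of NFATc1 and MITF, and promoters were read for letters that such factors bind. RefSeq windows (GRCm38.p6), from 250 bases before to 50 after a start site, matched 6 of the 10 genes: Tnfsf11, Tnfrsf11a, Traf6, Prdm1, Mitf and Oscar. The promoters of Tnfrsf11b, Nfatc1, Dcstamp and Ocstamp were not analysed here. Both strands were searched for TGACTCA (AP-1), GGAAAA (the core of NFAT sites) and CACGTG or CATGTG (MITF E-boxes), and no match overlapped another. Of the 8 windows of these 6 genes, that of Oscar alone held any. It held 2 NFAT cores, starting 250 and 83 bases before the start, and 1 CATGTG E-box, starting 6 bases before it. Of all 32851 windows, 23.4% held GGAAAA, 14.2% CATGTG, 7.15% CACGTG and 5.20% TGACTCA. The Oscar window (chr7:3616108-3616407, minus strand) is shown with these letters in capitals. That of Prdm1 (chr10:44458699-44458998, minus strand), the other gene that passed without control replicate 2, is shown for comparison and holds none.
Oscar: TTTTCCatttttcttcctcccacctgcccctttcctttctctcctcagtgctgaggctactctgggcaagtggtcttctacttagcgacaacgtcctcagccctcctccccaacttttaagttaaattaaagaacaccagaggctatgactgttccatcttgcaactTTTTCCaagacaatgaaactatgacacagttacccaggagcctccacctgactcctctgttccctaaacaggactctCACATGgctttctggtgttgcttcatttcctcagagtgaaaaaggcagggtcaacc
Prdm1: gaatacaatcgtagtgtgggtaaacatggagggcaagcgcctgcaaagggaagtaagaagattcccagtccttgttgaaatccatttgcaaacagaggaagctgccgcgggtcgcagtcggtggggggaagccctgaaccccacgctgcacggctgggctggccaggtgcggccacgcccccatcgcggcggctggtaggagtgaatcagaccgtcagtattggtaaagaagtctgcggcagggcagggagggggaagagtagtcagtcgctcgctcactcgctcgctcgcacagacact
A match is a description of the letters in the window and shows no binding.

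Ordered by level, Nfatc1 was above Oscar without overlap of their library ranges in both groups. Below them, RANKL, Dcstamp and Ocstamp stood between 9.68 and 11.0 FPKM on average in mimic ankles and between 13.0 and 15.6 FPKM in control ankles. RANK, Traf6, Mitf and Prdm1 followed, between 4.55 and 6.65 FPKM in mimic and between 6.16 and 7.80 FPKM in control ankles, with overlapping ranges between neighbours. The range of RANKL overlapped those of its neighbours in the order in both groups.

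Around these 10 genes, 9 lists of other genes of osteoclast formation were read out, with 109 of 112 genes tested. Of these, 0 passed over all genes, 81 had a log2 fold change below 0 and 28 above, and the median was -0.15. Over all genes tested, the groups did not overlap in 15.3%, or in 8.84% counting only those lower in the mimic ankles, and each list is given with its own counts. The lists were written with earlier results of these data known, and their counts describe these libraries.

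Upstream of RANKL, 10 of 12 genes known to induce it were tested, 8 of them with a log2 fold change below 0, and the median was -0.86. The groups did not overlap for 7 of them, 6 lower and 1 higher. Lif, an IL-6 family cytokine, stood at 2.76, 4.84, 5.83 and 2.67 FPKM in the mimic libraries, against 11.5, 10.5 and 8.69 FPKM in the controls (log2 fold change -1.31, SE 0.26, limma adjusted p = 0.173). Il1b, an inflammatory cytokine, stood at 50.7, 64.9, 53.0 and 31.0 FPKM in the mimic libraries, against 84.8, 126.2 and 144.0 FPKM in the controls (log2 fold change -1.25, SE 0.27, limma adjusted p = 0.174). The inducer that lay higher was Pthlh, which encodes parathyroid hormone-related protein and was named after its values were seen (log2 fold change 0.57, SE 0.18, limma adjusted p = 0.203).

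The M-CSF axis, the second growth signal of osteoclast precursors, was read as 3 genes, 2 lower and 1 higher, each without overlap. Csf1, which encodes M-CSF, stood at 32.3 ± 1.40 FPKM in mimic and 38.0 ± 2.86 FPKM in control ankles, with log2 fold change -0.23 (SE 0.068, limma adjusted p = 0.200). Its receptor Csf1r, the remaining gene of the list and named outside the rule after its values were seen, had log2 fold change -0.32 (SE 0.099, limma adjusted p = 0.203). Il34, which encodes the alternative ligand of the same receptor, lay the other way, at 11.3, 9.07, 9.50 and 7.04 FPKM in the mimic libraries against 6.74, 5.59 and 5.10 FPKM in the controls (log2 fold change 0.62, SE 0.16, limma adjusted p = 0.176).

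Beside TRAF6, the 21 other RANK adaptors and kinases had 13 log2 fold changes below 0 and a median of -0.077, with 5 lower and 1 higher without overlap. Grb2, an adaptor, and Map3k14, the NF-kB inducing kinase of the alternative pathway, were at -0.22 (SE 0.057) and -0.38 (SE 0.10) in log2 fold change. The 11 NF-kB and AP-1 factors had a median of -0.41, with 9 below 0 and 7 lower without overlap. Relb, the partner of the alternative NF-kB pathway, stood at 22.6 ± 0.85 FPKM in mimic and 28.1 ± 0.74 FPKM in control ankles (log2 fold change -0.31, SE 0.053, limma adjusted p = 0.173), and Junb had -0.83 (SE 0.17). Beside these, the summed level of 8 neutrophil genes ran from 1238 to 3070 FPKM in mimic and from 2935 to 5749 FPKM in control libraries, with all 8 below 0 in log2 fold change and none at 0 in any library. Their part in these factors and in the inducers of RANKL was not tested.

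The 15 genes of ITAM co-stimulation and calcium signalling, through which OSCAR acts, had a median of -0.14, with 11 below 0 and 2 lower without overlap. Syk, the kinase recruited by ITAM adaptors, stood at 24.7 ± 3.34 FPKM in mimic and 34.7 ± 3.26 FPKM in control ankles, and Tyrobp, an ITAM adaptor, at 298 ± 44.1 and 410 ± 65.3 FPKM. These were the 2 without overlap. Fcer1g, the adaptor that OSCAR pairs with, is named here after its values were seen. Its groups overlapped, with log2 fold change -0.17 (SE 0.18, limma adjusted p = 0.624). Among 10 other activating transcription factors the median was -0.099, with 7 below 0 and 2 lower without overlap. Spi1, which encodes PU.1, was at -0.55 (SE 0.13) and Jdp2, a partner of AP-1 factors, at -0.24 (SE 0.058). The 12 repressors of osteoclast formation had a median of -0.23, with 10 below 0 and 3 lower without overlap. Of these, Nfkbia, an NF-kB inhibitor, had -0.40 (SE 0.088) and Sfrp1, a secreted Wnt inhibitor, -0.87 (SE 0.25).

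The 13 other fusion genes had a median of -0.35, with 9 below 0, 3 lower and 1 higher without overlap. Atp6v0d2, a proton pump subunit needed for fusion, stood at 35.9, 33.0, 38.5 and 42.8 FPKM in the mimic libraries, against 44.9, 53.1 and 52.4 FPKM in the controls, without overlap. Itgav, an integrin chain, had log2 fold change -0.38 (SE 0.12) with overlapping groups. Of 15 mature osteoclast genes 14 were tested, with a median of -0.18 and 12 below 0, 7 lower without overlap and 1 higher. That 1 was Cst3, the protease inhibitor cystatin C, named after its values were seen. It had the highest mean of the list in mimic ankles, at 1372, 1247, 1206 and 1305 FPKM in the mimic libraries against 1128, 1073 and 934 FPKM in the controls (log2 fold change 0.30, SE 0.11, limma adjusted p = 0.246). Mmp9, a gelatinase, and Atp6v1b2, a proton pump subunit, were at -0.48 (SE 0.083) and -0.30 (SE 0.054), both at a limma adjusted p = 0.173. The part of neutrophils, whose genes are summed above, in the Mmp9 difference was not tested. Calcr, which encodes the calcitonin receptor that defines mature osteoclasts, was under the filter, at 0.348 to 0.821 FPKM in mimic and 0.473 to 0.754 FPKM in control libraries.

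**Figure D3:**
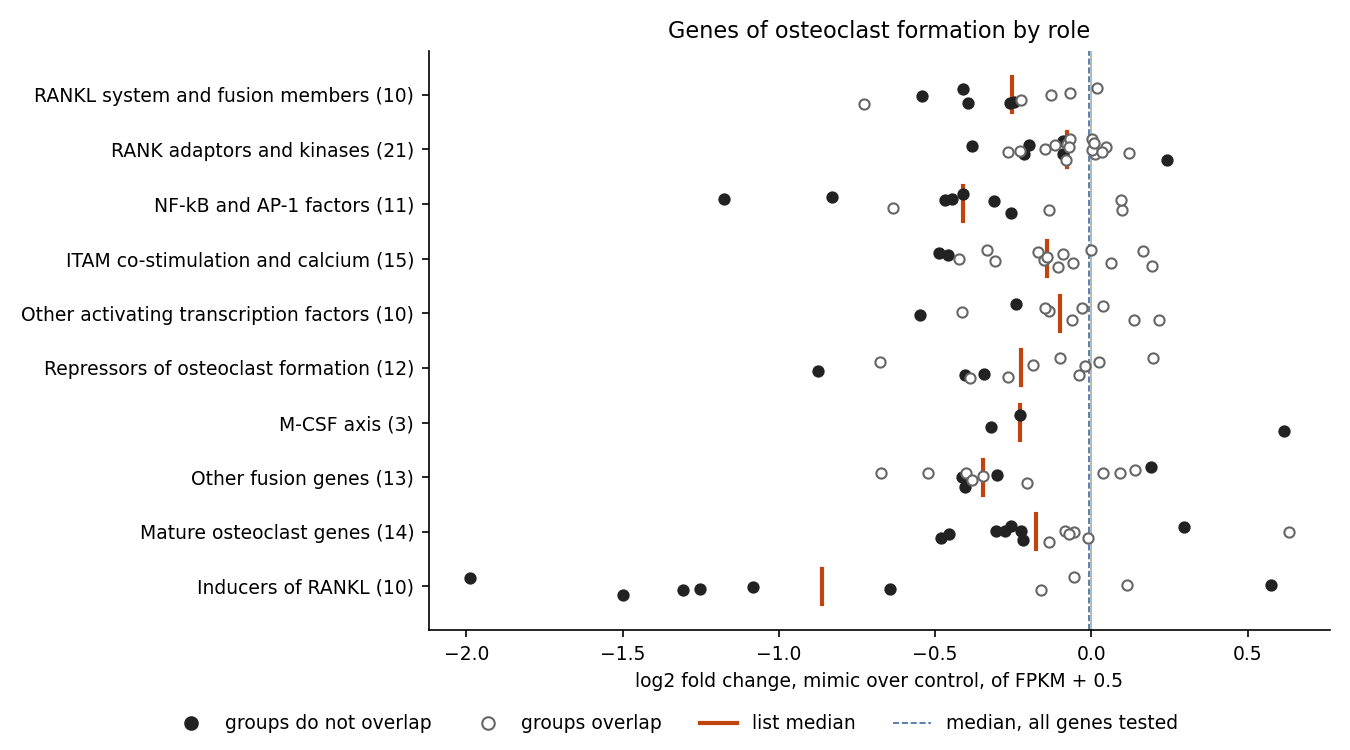
log2 fold change, mimic over control, of FPKM + 0.5 for the 10 genes (top row) and for the tested genes of the 9 other lists, with the number tested in brackets. Filled points are genes whose groups do not overlap, orange bars list medians and the dashed line the median of all genes tested, -0.0063; the inducers of RANKL reach lowest, with a median of -0.86.

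Genes whose level moved most like RANKL over the 7 libraries were taken as those with the smallest root mean square difference from Tnfsf11, after each gene's mean log2(FPKM + 0.5) was subtracted. The 3 closest were Rtn4rl2 (0.12 log2 units), Cebpd (0.13) and Nfil3 (0.14), and Ddit4 (0.18) was also among the 5 closest. Cebpd stood at 19.7, 37.8, 38.7 and 20.5 FPKM in mimic libraries 1, 2, 4 and 5, against 41.7, 44.1 and 56.0 FPKM in control libraries 2, 3 and 5. Nfil3 stood at 10.9, 18.6, 19.9 and 10.4 FPKM in the same mimic libraries, against 22.4, 22.6 and 29.9 FPKM in the controls. In each of these 4 genes, as in Tnfsf11, mimic libraries 1 and 5 were the lowest of the 7. These genes were chosen by likeness and are described without a test.

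**Figure D4:**
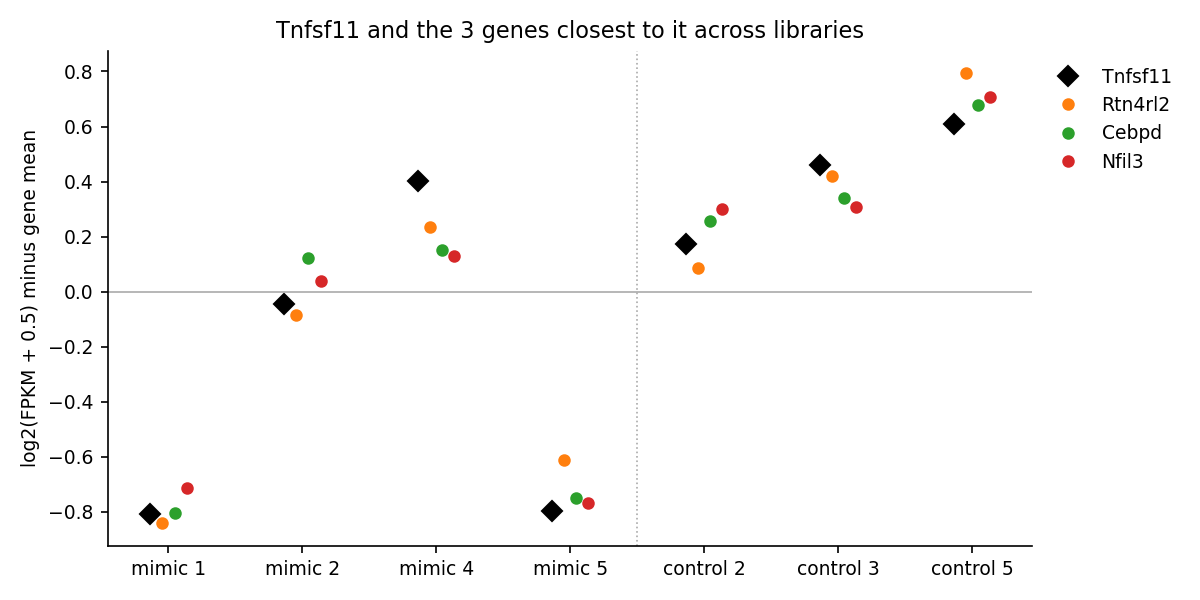
log2(FPKM + 0.5) of Tnfsf11 and of the 3 genes closest to it, each minus its own mean over the 7 libraries, in mimic (left) and control libraries (right), 1 point per library. Mimic libraries 1 and 5 are the lowest 2 points of every gene.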

How the data were processed

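The deposited table holds FPKM values, computed by the authors, and per the file headers also exon positions, joined exon length and Entrez numbers. Per the submitters' processing notes the builds were mm10 and GRCm38, and the tools DESeq2 1.14.1, featureCounts, Subread, STAR 2.5.2b and bcl2fastq 2.20. The sources used here do not give the strand setting or annotation release. Symbols came from RefSeq (25275 of 27179 Entrez numbers matched).

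Multiplied by gene length, 100.0% of values were whole multiples of a step per library, to a tolerance of 0.01 read, so read numbers could be recovered. Over 21 library pairs the chi-square of the reads was at least 16.7 per gene, so each library was counted once.

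The fit was limma 3.58.1 in R 4.3.3 (lmFit, eBayes with trend; checked on simulated data), with group as the factor, a pseudocount of 0.5 and Benjamini-Hochberg adjustment. The ratio test used scipy 1.17.1, tables pandas 2.3.3 in Python 3.11.15 and figures matplotlib 3.10.9. The 10 genes and all lists were chosen with earlier results of these data known. Beside the 10 genes, the text names the 2 genes of each list with the smallest p, and 4 of the 5 genes closest to Tnfsf11; the other is not reported here. Calcr and single genes of the cell type lists are also named outside this rule, without a mark. Other genes named outside it are marked in the text. Alternatives were other pseudocounts, filters, scaling, no trend, limma-voom, a replicate block, a muscle covariate and leaving out each library.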

Additional observations from a re-analysis of the deposited data

How the results depend on the processing

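The 10 log2 fold changes were recomputed under 16 alternatives, 159 values in all, of which 152 kept their sign and their side of the threshold. Tnfrsf11b turned negative with a muscle covariate (-0.0022) and was -0.021 without mimic replicate 4, -0.024 without control replicate 2 and -0.031 without control replicate 5, while Traf6 was 0.0026 without control replicate 3. Over all single libraries left out, Tnfrsf11b ran from -0.031 to 0.11 and Traf6 from -0.13 to 0.0026. Leaving out single libraries gave 0 to 115 genes higher, 0 to 202 lower and 0 to 2 of the 10 genes called at a limma adjusted p under 0.05; the highest counts came without control replicate 2, and 2 genes were higher without mimic replicate 5. Without a filter, over 21363 genes, 1 gene was lower. The cause was not tested. Tnfrsf11b was not tested with a mean of at least 5 FPKM. Same-numbered libraries deviated together for number 2 (r = 0.54 across genes) and apart for number 5 (r = -0.43). Libraries of unlike number reached r = 0.53 (mimic 1 with control 5) and -0.52 (mimic 1 with control 2). These values therefore cannot tell whether the numbers pair the libraries. The replicate block takes its difference from numbers 2 and 5. It gave 0 genes and 0 of the 10, with 1064 genes at an unadjusted p under 0.05, and -0.96 for the log2 ratio. Without single libraries the log2 ratio ran from -0.99 to -0.60. With 6 libraries its exact test cannot reach 0.05. OPG, with 300 to 352 reads a library, had the fewest reads of the 10 genes.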

Other observations

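Marker lists of cells not described above were also summed. Cartilage genes ran from 832 to 1005 and from 723 to 877 FPKM, B cell genes from 8.61 to 46.1 and from 13.1 to 19.7 FPKM, and erythroid genes from 217 to 1720 and from 153 to 655 FPKM, in mimic and control libraries in that order, all with overlap. Adipocyte genes ran from 826 to 1132 FPKM in mimic and from 504 to 822 FPKM in control libraries, without overlap. The log2 fold change was above 0 in all 8 cartilage genes (median 0.58) and all 5 B cell genes tested (median 0.28). It was also above 0 in all 6 erythroid genes (median 1.17) and all 7 adipocyte genes (median 0.71). All 4 keratinocyte genes tested were below 0, and 0 genes of these lists passed. Keratinocyte genes summed to 1.99 to 2.41 FPKM in mimic libraries and 1.93 to 77.3 FPKM in control libraries, with the high value in control library 5 alone. Krt5, Krt14 and Dsg3 were at 0 in at least 1 library. Without that library, 9 of the 10 genes kept their sign, Tnfrsf11b being the exception.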
